A study of Bos taurus with 34 samples.

Results

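Gastrin-releasing peptide is measured in this count table by 1 row of 38568, the transcript NM_001101239.1 of GRP. The RefSeq gene table lists 1 transcript for the gene and it matched 1 row, so no choice between rows was needed. The gene itself was chosen by measured values of these libraries, its high count in the endometrium and its low count in the ampulla. That difference is therefore a description here and carries no test.

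RNA was sequenced from the lining of the reproductive tract of 5 nulliparous adult Holstein heifers, numbered 10872, 10882, 11033, 11070 and 11110. All animals had received the same CIDR-based synchronisation and were slaughtered on day 2 after ovulation. The 34 libraries fall into 7 groups. The ampulla (part of the oviduct), the upper horn and the mid horn of the uterus were each sampled on the ipsilateral side, where ovulation took place, and on the contralateral side, and the uterine body gave 1 library per heifer. There were 5 heifers in 6 groups and 4 in the ipsilateral upper horn, where heifer 11110 was not analysed here. No animal at another day or without synchronisation is in the comparison. Each library is a bulk sample, and the mix of cells differed between ampulla and uterus, with few stromal and endothelial reads in the ampulla.

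GRP is the mammalian relative of the amphibian peptide bombesin. It is made as a longer precursor, cut and amidated at its C-terminus, and released to act on the receptor GRPR, which signals through Gq proteins to phospholipase C and calcium. It is best known for driving gastrin release in the stomach and as a transmitter of itch, and in the ruminant uterus it is known as a product of the endometrial glands.

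Total counts ran from 11619486 to 30412782 per library. Levels are CPM, counts scaled to the TMM-corrected library size, and a mean is given ± SD over libraries of different heifers. Of the libraries that stood apart, the contralateral mid horn of heifer 10882 was high in oviduct epithelium markers, for a cause that was not tested. They summed to 1311 CPM, against at most 82.6 in the other 23 uterine libraries. The fewest detected features were in heifer 11070's contralateral ampulla, 15773, and heifer 11033's contralateral upper horn, 16049. These are the 3 doubted libraries below. Heifer 10882's contralateral upper horn had the lowest TMM factor, 0.476, and 21.1% of its counts in noncoding features, and heifer 11033's uterine body had 26.2%, against at most 8.82% in the other uterine libraries.

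GRP was abundant in every part of the uterus and scarce in the ampulla. In the ipsilateral ampulla the 5 libraries stood at 18.6, 1.15, 12.8, 22.3 and 1.97 CPM in the order of the heifer numbers above, and in the contralateral ampulla at 34.8, 0.697, 0.328, 4.07 and 0.841 CPM. In the uterus the 24 libraries ran from 1019 to 12406 CPM, with a median of 3333. The ranges did not overlap, and the lowest uterine library was 29.3-fold above the highest ampulla library. GRP alone took 0.135% to 1.19% of all counts of a uterine library.

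**Figure D1:**
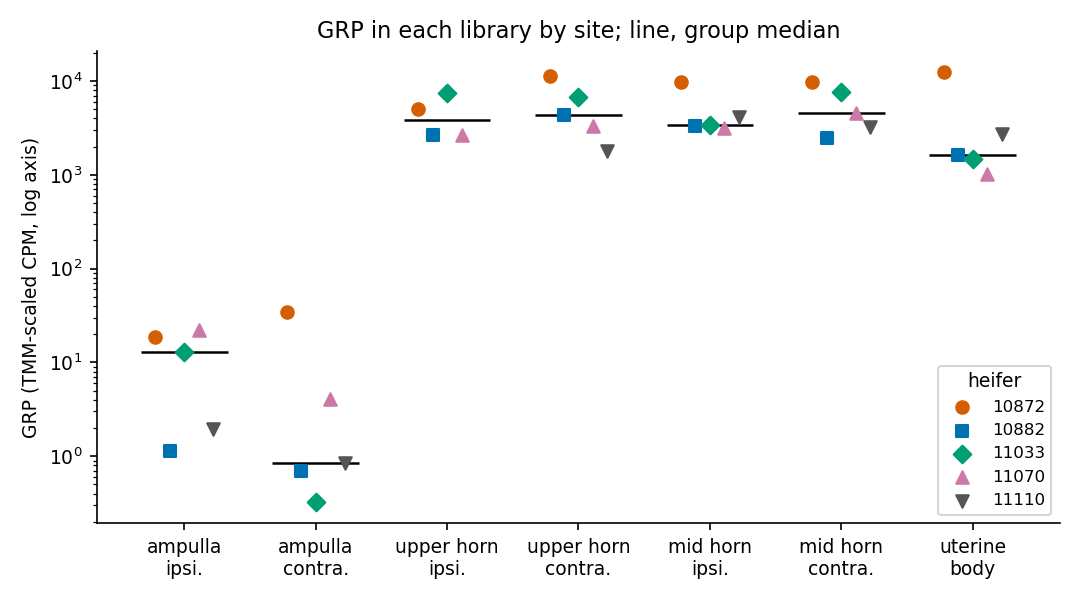
GRP level (TMM-scaled CPM, log axis) in each of the 34 libraries by site and side, with 1 point per heifer and a line at each group's median. Ampulla libraries sit between 0.328 and 34.8 CPM and uterine libraries between 1019 and 12406 CPM.

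In the same heifer order, the contralateral upper horn held 11445, 4383, 6750, 3281 and 1804 CPM, and the ipsilateral upper horn 5016, 2641, 7360 and 2653 CPM in the first 4 animals. The contralateral mid horn held 9728, 2446, 7654, 4526 and 3195 CPM and the ipsilateral mid horn 9822, 3280, 3384, 3158 and 4121 CPM. In all 4 horn groups the levels overlapped, and heifer 10872 was highest in each but the ipsilateral upper horn, where heifer 11033 was. The uterine body held 12406, 1627, 1477, 1019 and 2725 CPM, so that it gave both the highest and the lowest uterine library.

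Ordered by their means, the contralateral upper horn was first with 5532 ± 3766 CPM (n = 5) and the contralateral mid horn next with 5510 ± 3086 (n = 5). The ipsilateral mid horn followed at 4753 ± 2858 (n = 5), the ipsilateral upper horn at 4418 ± 2258 (n = 4) and the uterine body at 3851 ± 4824 (n = 5). No neighbours in this order differed beyond their spread. The ampulla came last, with 11.4 ± 9.59 CPM on the ipsilateral and 8.14 ± 14.96 on the contralateral side (n = 5 each), and these overlapped as well. By medians the uterine body stood apart from the horns, at 1627 CPM against 3384 to 4526 in the horn groups, while its mean was carried by heifer 10872 at 12406 CPM. Without that heifer the mean was 1796 CPM in the body and 1.42 CPM in the contralateral ampulla.

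Averaged per heifer, with the upper horn, mid horn and body at equal weight, the endometrium held 380-fold, 2887-fold, 712-fold, 198-fold and 1941-fold more GRP than the ampulla of the same animal, in the order of the heifer numbers. The difference was thus in the same direction in 5 of 5 heifers but varied 14.6-fold in size. The fitted log2 fold change, ampulla against endometrium, was -9.33 ± 0.64 (SE). This variation came more from the ampulla, whose heifer means spanned 28.9-fold, than from the endometrium, where they spanned 3.89-fold.

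The ampulla libraries held more epithelial RNA than the uterine ones. General epithelium markers summed to between 5976 and 7946 CPM in the ampulla and to between 981 and 4406 CPM in the uterus. Per CPM of epithelial markers, GRP stood at 0.0000428 to 0.00582 in the ampulla and 0.555 to 4.84 in the uterus, so on this scale too the ranges did not overlap. Stromal markers summed to 44.8 to 134 CPM in the ampulla and 38162 to 87162 CPM in the uterus. Per CPM of stromal markers, GRP ran from 0.00731 to 0.284 in the ampulla and from 0.0118 to 0.269 in the uterus, which are overlapping ranges. The stromal genes DCN, LUM and PDGFRA and the endothelial gene CLDN5 had 0 counts in all 10 ampulla libraries, where GRP had 1918 counts in all. Their uterine counts were also far below the 2502432 of GRP, at 22437, 1150, 332 and 36616. Other genes high in the uterus did have ampulla counts. The collagen gene COL1A2 had 10738 there, against 10814084 in the uterus. OXTR, the oxytocin receptor, had 28 against 59065, and the stromal gene HAND2 had 13 against 87416. The part of other cells in the small ampulla signal was not tested. The mix of sampled cells differed together with the site. In bulk tissue, fewer GRP-expressing cells and less GRP RNA per cell cannot be told apart.

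The uterine level was highest in 1 of the 5 animals. Over their uterine libraries, heifer 10872 ran from 5016 to 12406 CPM (n = 5) and heifer 11033 from 1477 to 7654 (n = 5). Heifers 10882, 11070 and 11110 ran from 1627 to 4383 (n = 5), from 1019 to 4526 (n = 5) and from 1804 to 4121 (n = 4). With the sites at equal weight, heifer 10872 had 10137 CPM, heifer 11033 had 4684, and the other 3 lay close together at 2667, 2609 and 2729. In heifer 10872, 4 of 5 uterine libraries lay above every library of the other animals, and the exception was the ipsilateral upper horn at 5016 CPM.

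**Figure D2:**
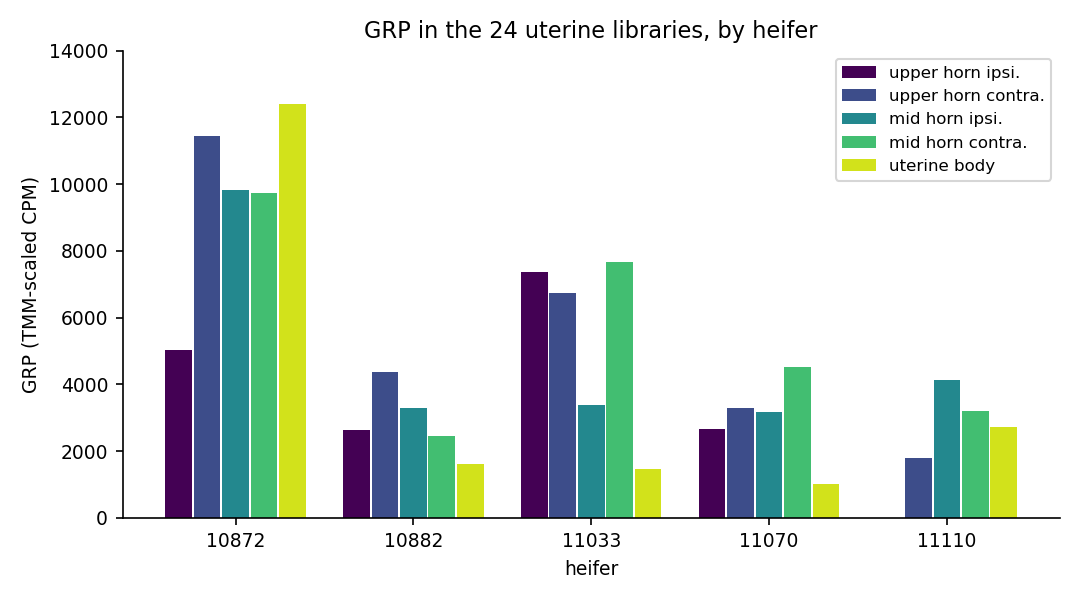
GRP level (TMM-scaled CPM, linear axis from 0) in each uterine library, grouped by heifer and coloured by site; the ipsilateral upper horn of heifer 11110 was not analysed here. Heifer 10872 reaches 12406 CPM in the uterine body, where heifer 11070 has 1019.

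Of the variance of log2 GRP among the 24 uterine libraries, 54.7% lay between heifers, 14.9% between the 5 site groups and 30.4% in neither. Across all tested features with a uterine count the median share between heifers was 28.7%, with quartiles of 17.98% and 41.2%, and 90.8% of features had a smaller share than GRP. The order of the shares rested on 1 animal. Without heifer 10872, 17.1% lay between heifers and 44.5% between site groups, while without any other heifer the share between heifers stayed the higher, at 53.3% to 68.4% against 8.96% to 20.9% between site groups. Epithelial RNA also differed between the animals. The mean epithelial marker sum was 3681 CPM in heifer 10872 and 2054 to 2489 CPM in the others, while GRP per epithelial CPM was 2.60 in heifer 10872, 2.52 in heifer 11033 and 1.27, 1.37 and 1.52 in heifers 10882, 11070 and 11110. On that scale heifers 10872 and 11033 were nearly equal, and the share of variance between heifers was 48.8%. The part of epithelial content in the difference was not tested further.

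The comparisons within the uterus asked whether GRP follows the position along the horn or the side of ovulation. They were run with edgeR's quasi-likelihood test on all 34 libraries with heifer as a block and Benjamini-Hochberg adjustment over 17241 features. None of the 7 comparisons of GRP passed an adjusted p of 0.05, except under an alternative given beside 2 of them.

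Between the upper and the mid horn, the log2 fold change of GRP was -0.11 ± 0.48 (95% interval -1.09 to 0.88, adjusted p 0.965). It was above 0 in 2 and below 0 in 2 of the 4 heifers that had all 4 horn libraries, and 0.0174% of features were called in that comparison. The horn and the body differed more. Against the body, the upper horn was at 0.66 ± 0.60 (interval -0.58 to 1.90, adjusted p 0.647; 0.0232% of features called), higher in 3 of 4 heifers. The mid horn was at 0.77 ± 0.58 (interval -0.42 to 1.95, adjusted p 0.397), higher in 4 of 5 heifers. Here 4.45% of features were called, 0.528% higher and 3.92% lower in the mid horn.

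The exception in both was heifer 10872, in which the body was the highest of all uterine libraries. The body library was the lowest of the uterus in heifers 11033 and 11070, with and without TMM factors. In heifer 10882 it was the lowest at 1627 CPM with them, but without them the contralateral upper horn was, at 2087 against 2135 CPM, since that library stood at 4383 CPM with its TMM factor. In heifer 11110 it stood at 2725 CPM between 1804 in the contralateral upper horn and 3195 in the contralateral mid horn. Without heifer 10872 the mid horn was at 0.99 ± 0.57 over the body, again not called (adjusted p 0.241). In the fit of uterine libraries only, the estimates were alike and the SEs smaller. The mid horn was then at 0.77 ± 0.32 over the body and the upper horn at 0.67 ± 0.34. Neither was called by edgeR (adjusted p 0.103 and 0.377). With no filter on low counts the mid horn was called higher, at 0.79 ± 0.18 (adjusted p 0.000866), and the range over all other alternatives was 0.103 to 0.789. Epithelial markers moved the same way: of 11 tested, 4 rose in the mid horn against the body and 0 fell (list median 0.74, median of all features -0.06). The 4, keratins and a claudin named after their values were seen, were KRT7 at 1.31 ± 0.34, CLDN4 at 1.09 ± 0.30, KRT8 at 0.93 ± 0.22 and KRT18 at 0.88 ± 0.24. Their edgeR adjusted p were 0.0408 to 0.0444. These calls were lost without heifer 10882, 11033 or 11070 and without the heifer block (0 of 11 each), where edgeR called 0 to 2 features in all. The part of epithelial content in the GRP values was not tested.

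The side of ovulation made no difference that passed the test. In the upper horn the ipsilateral side stood at -0.29 ± 0.69 against the contralateral one (interval -1.70 to 1.12, adjusted p 0.962; 0.0058% of features called), and it was lower in 3 of 4 heifers. In the mid horn the value was -0.13 ± 0.64 (interval -1.45 to 1.19, adjusted p 1; 0% of features called), lower in 2 of 5 heifers. The side effects of the upper and the mid horn differed by -0.16 ± 0.95 (interval -2.10 to 1.79, adjusted p 1; 0% of features called). For these last comparisons, 513 and 252 features had an unadjusted p under 0.05, and DESeq2 called 19 and 1. In this fit of all 34 libraries, ampulla included, the side intervals leave room for differences of more than 2-fold in either direction in each horn. With uterine libraries only, the SEs were smaller. The side values were then -0.26 ± 0.38 in the upper horn and -0.20 ± 0.36 in the mid horn, again not called.

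In the ampulla GRP was 2.45-fold higher on the side of ovulation, a log2 fold change of 1.29 ± 0.71 (interval -0.17 to 2.75, adjusted p 0.692; 0.0174% of features called), and higher in 4 of 5 heifers. The largest difference was in heifer 11033, with 248 counts on the ipsilateral and 5 on the contralateral side. Heifer 10872 went the other way, with 354 and 665 counts. The estimate was 2.58 without heifer 10872 and 0.64 without heifer 11070, neither called (adjusted p 0.465 and 1). With no filter on low counts it was called at 1.33 ± 0.22 (adjusted p 1.79e-06), while the other alternatives gave adjusted p between 0.416 and 1.

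**Figure D3:**
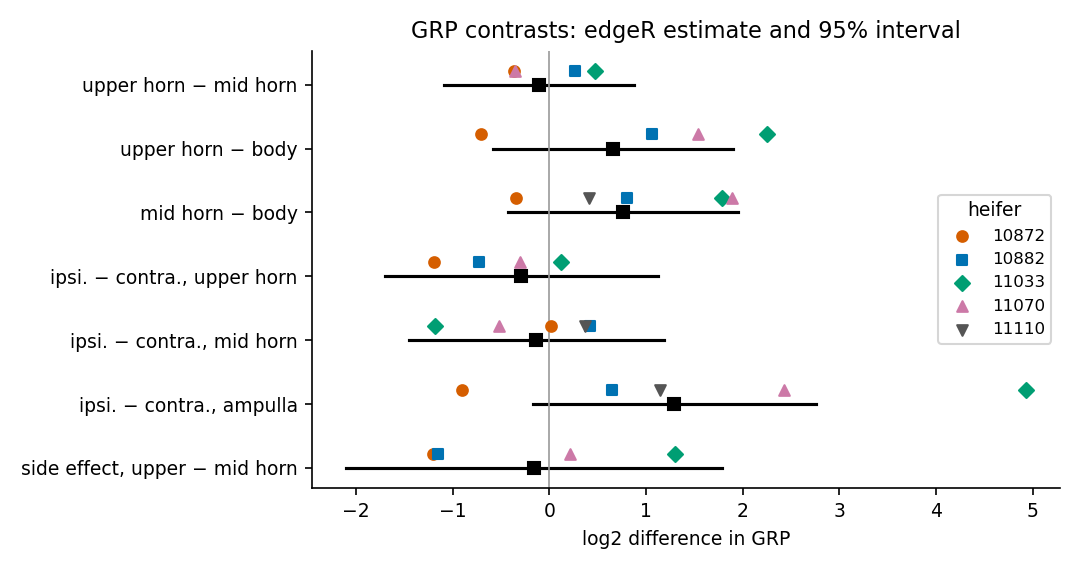
Log2 differences in GRP for the 7 tested comparisons: black squares are edgeR estimates with 95% intervals, and coloured points are the heifers that have every library of the comparison. All 7 intervals, from the fit of all 34 libraries with the ampulla included, include 0. In both comparisons with the body the point of heifer 10872 lies below 0.

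The receptors and the sister ligand were nearly silent. GRPR, the receptor for GRP, had 167 counts over the 24 uterine libraries and 20 over the 10 ampulla libraries, with at most 21 counts in a library. Its level was 0.482 ± 0.303 CPM in the uterine body, 0.321 ± 0.346 in the ipsilateral and 0.237 ± 0.0629 in the contralateral mid horn, 0.286 ± 0.156 and 0.179 ± 0.131 in the upper horns, and 0.0692 ± 0.0343 and 0.148 ± 0.172 in the ampullae. The fitted log2 fold change, ampulla against endometrium, was -1.47 ± 0.50 (adjusted p 0.0117). This difference is no support for a lower ampulla, because GRPR passed the low-count filter only through uterine libraries: 6 of 24 of these reached 10 counts, 0 of 10 ampulla libraries did, and it failed the filter without heifer 10882. It was not called in any of the 7 other comparisons. Over all features tested in that contrast, the calls were 29.4% upward and 35.6% downward, and each count of list members below stands beside these shares. NMBR, the receptor for neuromedin B, had 12 counts in all libraries together and BRS3, the orphan receptor of the family, had 1. Both rows of NMB, which codes for neuromedin B, had 1 count each. NMB has 4 transcripts in the RefSeq table, and reads that its transcripts share may not have been counted, whereas GRP, GRPR, NMBR and BRS3 have 1 each.

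Few genes that mature or degrade peptides could be tested. Of 12 peptide processing genes 5 passed the filter, and 2 of these rose and 1 fell in the ampulla, shares near those of all features (29.4% and 35.6%; list median -0.33, median of all features -0.18). PCSK5, a proprotein convertase, fell by 4.24 ± 0.24 (adjusted p 6.57e-16), and CPD, a carboxypeptidase that trims cut peptides, rose by 1.61 ± 0.11 (adjusted p 4.33e-14). QPCT, which cyclises N-terminal glutamine, rose by 0.54 ± 0.17 (adjusted p 0.00671), but was not called without the heifer block (0.0546) or without heifer 10872 (0.074) or 11033 (0.17). FURIN and PCSK1N had -0.45 ± 0.33 and -0.33 ± 0.28 and were not called. Of 7 peptide breakdown genes 5 passed the filter and 0 were called in the ampulla comparison (list median -0.35; 0 at an unadjusted p under 0.05, and 1 lower by DESeq2), with edgeR adjusted p from 0.0902 for ANPEP to 0.738 for NLN. The peptidase gene ANPEP was called in the mid horn against the body, 1.86 ± 0.51 lower on the log2 scale (adjusted p 0.0428), a call lost without heifer 10882 (0.221), 11033 (0.367) or 11070 (0.113) and without the heifer block (0.155). Of 16 genes of Gq and calcium signalling, 11 were tested, 2 rose and 4 fell, also near the background of 29.4% and 35.6% (list median -0.12).

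Among the 24 uterine libraries, many transcripts varied with GRP. Likeness was measured over 6767 named genes with a mean of at least 1 CPM, as the Spearman rho of CPM with GRP. The libraries share heifers, scaling and depth, so rho is a description and has no p. The median rho was 0.27, and 341 genes had a rho over 0.8 while 64 lay under -0.8.

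The gene most like GRP was SFTA2, a small secreted protein first described in lung, with a rho of 0.95 and a Pearson r of log2 CPM of 0.96. It ran from 20.4 to 142 CPM in the uterus, with a median of 57.6, and from 11.9 to 41.5 CPM in the ampulla. Its heifer means were 114, 54.7, 78.1, 43.0 and 44.9 CPM in the order of the heifer numbers, so heifers 10872 and 11033 led for both genes. With heifer and site group taken out, r was 0.94, the highest of all genes compared. In each analysis that left out 1 heifer, SFTA2 kept a rho of 0.92 to 0.98. In the ampulla it was lower than in the endometrium, at -0.76 ± 0.20 on the log2 scale (adjusted p 0.00164).

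The next genes by rho were CHCHD1, of the mitochondrial ribosome, and the fatty acid elongase ELOVL6, both at 0.93. TMEM14C, a mitochondrial membrane protein, and the uridine-cytidine kinase UCK2 stood at 0.92. COX7C, a subunit of cytochrome c oxidase, and the thioredoxin-like TXNDC17 stood at 0.91, as did the splicing factors SNRPE and PPIE and LAMTOR5, of the lysosomal Ragulator complex. Of these 10 genes, 7 were also among the 10 highest by Pearson r and 2 among the 10 highest once heifer and site group were taken out. Between ampulla and endometrium, their log2 fold changes, with the ampulla first, lay between -0.96 for UCK2 and 0.94 for COX7C. With heifer and site group taken out, the 5 highest r belonged to SFTA2 (0.94), MAGOH (0.93), of the exon junction complex, the proteasome assembly gene POMP (0.93), PRR13 (0.92) and TAF9 (0.92), of the transcription factor TFIID. The 5 lowest rho belonged to RGS9, which ends G protein signals (-0.87), RPAP2, a phosphatase of RNA polymerase (-0.87), the annexin ANXA11 (-0.87), MLLT10, a chromatin cofactor (-0.86), and EFS, a signalling adaptor (-0.86). Their rows were faint, with uterine means of 1.82, 7.04, 3.26, 3.58 and 9.93 CPM in that order. The part of low counts in these rho values was not tested.

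**Figure D4:**
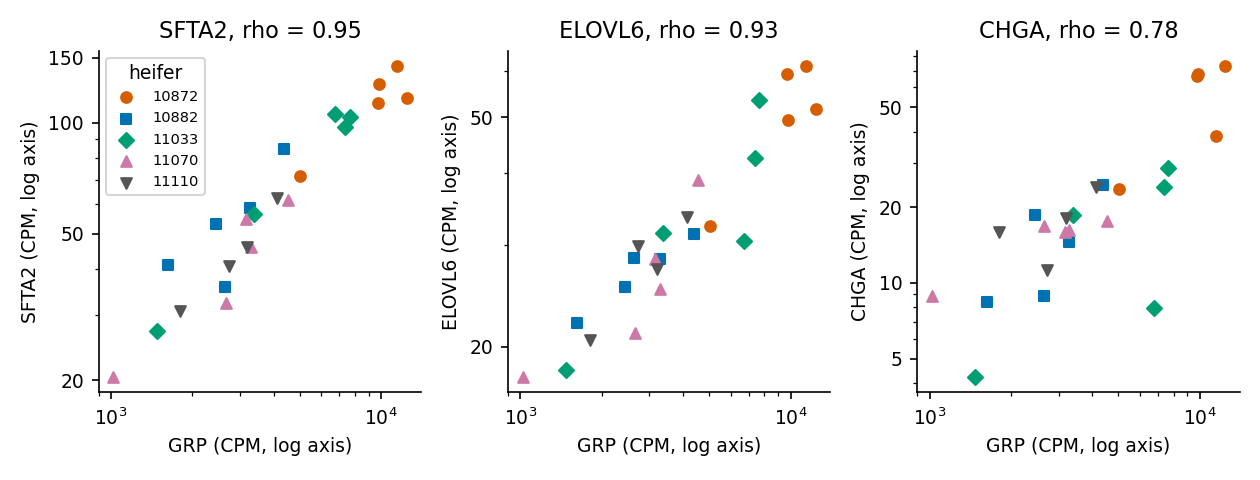
Levels of SFTA2, ELOVL6 and CHGA against GRP in the 24 uterine libraries (CPM on log axes, 1 point per library, coloured by heifer). SFTA2 and ELOVL6 lie close to a line with rho of 0.95 and 0.93, and CHGA, with 0.78, scatters more.

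A property of the libraries moved with this pattern. The number of detected features ran from 16049 to 26676 in the uterine libraries and had a rho of -0.62 with GRP, against 0.25 for the total count. The first principal component of the uterine libraries took 30.8% of their variance. It had a rho of 0.82 with GRP, -0.88 with the number of detected features and 0.67 with the epithelial marker sum. The 10 genes most like GRP had a rho between 0.80 and 0.94 with that component. After the number of detected features was taken out together with heifer and site group, SFTA2 still had an r of 0.93, which placed it after MAGOH at 0.94, and CHCHD1, SNRPE and LAMTOR5 ranked 180, 183 and 137. These 3 had ranked 111, 112 and 125 with only heifer and site group taken out. The part of library complexity in the likeness was not tested further.

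For the gene lists, medians of rho are given over members with a mean of at least 1 CPM in the uterus, the floor behind the median of 0.27 over all genes compared. General epithelium had the highest, 0.68, with 8 of 9 members above 0. EPCAM, an adhesion molecule of epithelial cells, stood at 0.75 and the cadherin CDH1 at 0.74. The transcription factor ELF3, with a mean of only 1.19 CPM, stood at -0.53. The list of endometrial gland genes had a median of 0.47 (5 of 6 above 0), led by the transcription factor KLF5 at 0.79 and WNT7A at 0.63. PIGR followed at 0.59, FOXA2 at 0.35 and SOX17 at 0.32, and the chemokine CXCL17 was last at -0.02. Gland content was not measured, so this median does not show that GRP followed it. Oviduct epithelium stood at 0.32 (4 genes), stroma at 0.27 (9), smooth muscle at 0.13 (5), leukocytes at 0.00 (6), ciliated epithelium at -0.02 (7) and endothelium at -0.16 (7). In the ampulla comparison, 4 of 8 tested gland genes rose and 2 fell, against 29.4% and 35.6% of all features (list median log2 fold change 0.43). Of 11 general epithelium genes 7 rose and 2 fell (list median 1.17). Neither list was thus particular to the endometrium in these data.

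Some of the medians of rho depended on the floor. With all tested members, those under 1 CPM included, smooth muscle stood at -0.14 and stroma at -0.01. The highest members were HAND2 (0.35) and LUM (0.32) in stroma, PLVAP (0.49) and CLDN5 (0.12) in endothelium, SYNPO2 (0.38) and ACTG2 (0.29) in smooth muscle, ITGAM (0.11) and CD5 (0.04) in leukocytes, CAPS (0.29) and TEKT4 (0.05) in ciliated epithelium, and KRT23 (0.58) and LRCOL1 (0.36) in oviduct epithelium. The lowest were COL6A1 (-0.47), FLT1 (-0.38), ACTA2 (-0.48), MS4A1 (-0.42), RSPH1 (-0.63) and OVGP1 (-0.54) in the same order. ACTA2, RSPH1 and OVGP1 had uterine means under 1 CPM.

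**Figure D5:**
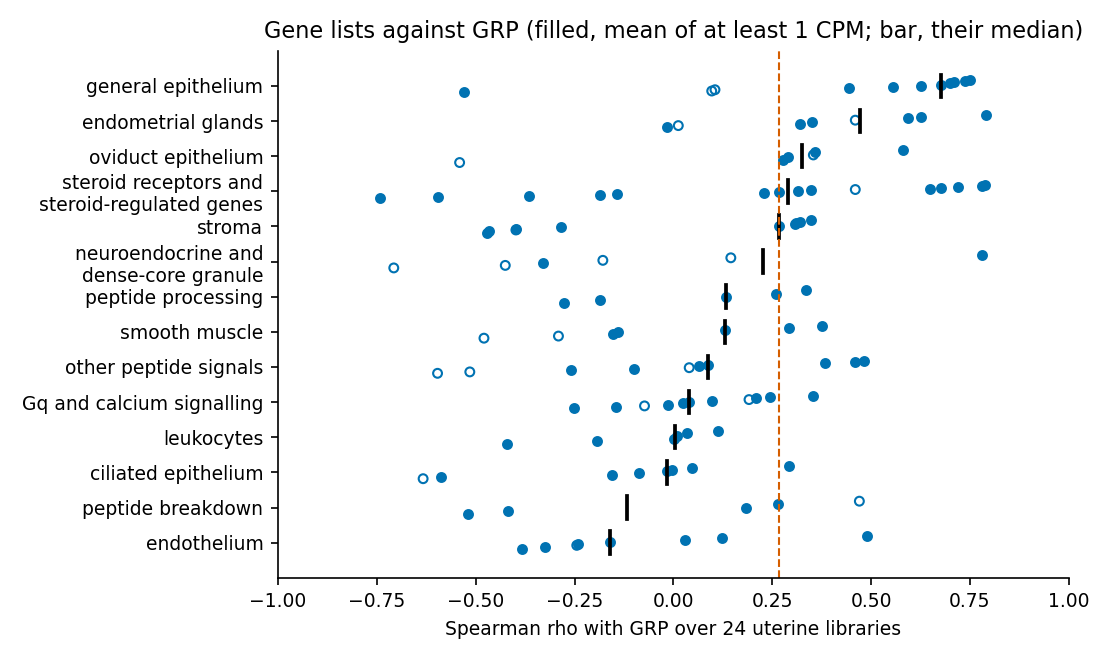
Spearman rho with GRP over the 24 uterine libraries for the tested members of 14 gene lists (1 point per gene; filled, mean of at least 1 CPM; open, below it; black bar, median of the filled points; dashed line, median of all 6767 genes compared). General epithelium has the highest median, 0.68, and CHGA, in the neuroendocrine list with 2 filled points, lies at 0.78.

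Markers of neuroendocrine cells, which store peptides in dense-core granules, had rho values on both sides of 0. Of 14 listed genes 6 were tested, and 2 of these had a rho above 0. The mean was at least 1 CPM in the uterus for CHGA and SYP, a synaptic vesicle protein with a rho of -0.33, and under it for the other 4. CHGA, the granule protein chromogranin A, had a rho of 0.78. It stood at 53.9 CPM in the uterus of heifer 10872 and between 15.01 and 17.4 in the other 4 animals, and over the uterine libraries it ran from 4.23 to 72.8 CPM. In the ampulla CHGA had 2.04 ± 2.57 CPM on the ipsilateral and 1.64 ± 1.54 on the contralateral side, a log2 fold change of -3.88 ± 0.38 against the endometrium (adjusted p 1.88e-10). Without heifer 10872 the rho of CHGA was 0.57. VGF, another granule protein, had a rho of 0.15 at no more than 1.35 CPM, and ENO2, a neuronal enolase, had -0.71 at no more than 1.40 CPM. In the ampulla comparison 2 members of the list rose and 4 fell, against 29.4% and 35.6% of all features (list median -3.11).

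Other peptide signals were spread around 0, with a median rho of 0.09 over the 7 members at 1 CPM or more, of 25 listed and 10 tested. The vessel-active endothelin EDN1 had the highest rho at 0.48, followed by the natriuretic peptide NPPC at 0.46, and the opioid precursor PDYN had the lowest at -0.60 with a mean of 0.818 CPM. In the ampulla 2 of the 10 rose and 6 fell, against 29.4% and 35.6% of all features (list median -2.07). Of the steroid receptors and steroid-regulated genes, 9 of the 14 at 1 CPM or more had a rho above 0, with a median of 0.29. The oxytocin receptor OXTR, at 24.2 to 282 CPM in the uterus, had 0.79 (0.58 in the lowest of the analyses that left out 1 heifer). The homeobox gene MSX1, at 355 to 1162 CPM, had 0.78. The oestrogen-induced gene GREB1 had -0.74, but was faint at 0.0967 to 5.17 CPM, with a mean of 1.82. In the ampulla 1 of 15 tested members of this list rose and 11 fell, against 29.4% and 35.6% of all features (list median -2.31), among them OXTR at -9.34 ± 0.54 (adjusted p 3.93e-15) and MSX1 at -5.84 ± 0.31 (adjusted p 1.00e-16). Of the stromal genes 10 of 10 tested fell, against the same 35.6%. DCN, LUM and PDGFRA among them, with 0 ampulla counts, passed the low-count filter only through uterine libraries. So did OXTR, with 28 counts over the 10 ampulla libraries. The falls of these genes were set by that and are no support for a lower ampulla.

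In the RefSeq gene order GRP lies between SEC11C, a subunit of the signal peptidase, and RAX, a homeobox gene, and 0 annotated genes overlap it. SEC11C ran from 56.8 to 200 CPM in the uterus and from 98.8 to 673 CPM in the ampulla, where GRP was scarce. Its rho with GRP among uterine libraries was 0.59. RAX had 7 counts and CPLX4, the next gene beyond it, had 3 over all uterine libraries, where GRP had 2502432.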

How the data were processed

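The authors deposited 1 table of raw read counts per annotated feature, whole numbers with 1 column per library. Libraries were made with a directional kit, per the labels' protocols. The tools on record, per the submitters' processing notes, are STAR 2.7.9a, SAMtools, HTSeq and cutadapt. Which genome build, strand setting and counting mode were used is not given in the sources used here, and reads that fit several transcripts may have been lost. Names came from a RefSeq gene table (ARS-UCD2.0), which was used for names and gene order only: 26079 of 38568 features matched. No sequence is shown because none was in the tables used.

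CPM were computed from the deposited counts with TMM factors. Tests used edgeR 4.0.16 in R 4.3.3 (filterByExpr, robust dispersions, quasi-likelihood F test, group and heifer as terms, all 34 libraries, 17241 features), with calls at a Benjamini-Hochberg adjusted p under 0.05 within a comparison. The scripts were tested on simulated data. Log2 CPM used a prior count of 2. DESeq2 1.42.0 was an alternative, beside its size factors, no filter, no heifer block, uterine libraries only, and fits without each heifer or the 3 doubted libraries.

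The heifer block comes from the animal number in each title: deviations from group means had a median correlation of 0.207 over 99 library pairs of 1 heifer and -0.0539 over 396 pairs of different heifers and groups. Within groups, no 2 libraries agreed within counting error (chi-square per feature at least 44.8 over 66 pairs).

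The gene and the 16 lists were chosen with earlier results of these data known. Named were GRP, its family and the called members of the processing and breakdown lists. FURIN, PCSK1N, NLN, the stromal, endothelial and neighbouring genes, and the ampulla counts of OXTR were added after their values were seen. By likeness, the 10 highest and 5 lowest rho with GRP were named, and the 5 highest r with heifer and site group taken out. From each other list came the 2 highest and 1 lowest rho, and from the gland list every member at 1 CPM or more. The list of Gq genes is given by counts.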

Additional observations from a re-analysis of the deposited data

Results flagged for a closer look

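Within groups of 4 or 5 heifers, 1 animal stood far from the rest in 5 of the 14 groups of values checked. In each of these it was heifer 10872. For a single group chance gives about 1 in 20. The 14 groups share the same 5 animals, and the heifer means reuse libraries also checked by site. They are therefore not independent, and the 5 cannot be set against that rate. GRP in the uterine body was 12406 CPM in that heifer against 2725 in the next. In the ipsilateral mid horn it was 9822 against 4121 CPM, and in the contralateral ampulla 34.8 against 4.07 CPM. The heifer's mean over the endometrium was 10137 CPM, with the next at 4684. CHGA, averaged over the uterine libraries, was 53.9 CPM in the same heifer and 17.4 in the next.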

How the results depend on the processing

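GRP stayed short of the threshold under every alternative in 5 of its 7 tests. With no filter on low counts the mid horn against the body was called at 0.79 (adjusted p 0.000866) and the ipsilateral against the contralateral ampulla at 1.33 (adjusted p 1.79e-06), and the cause was not tested. Taking the heifer block out (no replicate block, with heifers as the pairing) changed no call of GRP: the mid horn against the body was then 0.41 and the ipsilateral against the contralateral ampulla 0.47, from 0.77 and 1.29. The ampulla against the endometrium kept its direction at -9.96 to -8.89. The share of variance between heifers was 17.1% to 68.4% when 1 heifer was left out, lowest without heifer 10872, where the share between site groups was 44.5% in place of 14.9%. Of the 10 genes most like GRP, 2 to 5 stayed among the 10 highest when 1 heifer was left out, 2 without the 3 doubted libraries and 2 with detected features, heifer and site taken out, yet 7 to 10 stayed among the 100 highest throughout. The count of features called for the mid horn against the body, 767, was unstable: 1276 with DESeq2 size factors, 2714 with DESeq2, 2057 without the filter, 1 without the block, 2064 in uterine libraries only, 1228 without the 3 doubted libraries, and 0 to 1835 when 1 heifer was left out (0 without heifer 10882 or 11070 and 1835 without heifer 10872). Of the values not called, the upper against the mid horn turned to 0.0651 without heifer 11110 (-0.36 to 0.07 when 1 heifer was left out), the sides of the mid horn to 0.14 without heifer 11033 (-0.33 to 0.14), and the difference of the side effects to 0.13 without heifer 10872, 0.17 without heifer 10882 (-0.73 to 0.17) and 0.0769 without the 3 doubted libraries. Counts of list members called in the ampulla moved by over 1.5 times in 6 cases: processing higher 1 to 2 and lower 1 to 2, breakdown lower 0 to 1, neuroendocrine higher 1 to 2, steroid higher 1 to 2 and epithelium lower 2 to 4. GRPR failed the low-count filter without heifer 10882. The floor of 1 CPM on list medians was chosen after seeing the data: without it the median rho was -0.14 in place of 0.13 for smooth muscle, -0.25 in place of 0.23 for the neuroendocrine list and 0.18 in place of -0.12 for peptide breakdown. Depth limits the receptors and the ampulla most: 3 counts, the floor that a count of 0 allows, equal 0.13 to 0.24 CPM in ampulla libraries, and such limits cover counting error only.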
